A study of Mus musculus with 24 samples.

Results

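A set of 10 genes that mark the fat cells of skin were followed through the 24 libraries of a mouse wounding study, as the 10 rows named Adipoq, Lep, Retn, Cfd, Plin1, Plin4, Cidec, Fabp4, Lpl and Pparg among the 18368 genes of the expression table. Each of 12 CD1 mice, an outbred strain, gave 2 libraries of whole skin, 1 from a full-thickness punch wound 3 days old and 1 from unwounded skin next to it, and 4 mice were wounded at each of abdomen, back and cheek. All mice were 7 weeks old, with hair follicles coordinated in the resting phase (telogen), and carried 1 wound (cheek) or 2 (abdomen and back) of 2 mm at that single site. The labels give no genetic alteration and no treatment that differed between groups, the mice having been anaesthetised with pain relief for wounding, and every comparison was between sites, or between a wound and the skin beside it in the same animal. Values are FPKM (sequenced fragments assigned to a gene, per kilobase and relative to the library's mapped reads), which take transcript length into account and so can be compared between genes. Read counts were not part of the table, which leaves sequencing depth unknown and counting errors out of reach.

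Mouse skin holds a sheet of white adipocytes beneath the reticular dermis, the dermal white adipose tissue, above a thin muscle layer, the panniculus carnosus. A white adipocyte keeps triglyceride in 1 large droplet coated by perilipins and by the fusion protein Cidec, takes up fatty acids that lipoprotein lipase frees from circulating lipoproteins, and secretes hormones. Pparg, the nuclear receptor that directs adipocyte differentiation, acts with the C/EBP factors on the genes of all these functions. In skin, this fat layer is known to thicken and thin with the hair cycle and to take part in wound repair. In a whole-tissue library, fewer adipocytes, less of an RNA in each adipocyte and more RNA from other cells cannot be told apart, since FPKM is relative to the library.

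The stretches upstream of 5 members are shown as DNA letters, whose part in the shared movement of these genes was not tested. Adipoq and Retn are shown because the results turn on them, and Lep, Cidec and Pparg as 3 of the 4 windows with matches to a C/EBP motif. The window of Plin1 held 127 bases of annotated exons and is not printed, while that of Lep held 1. Each is the 250 bases before an annotated start (RefSeq, GRCm38.p6), 5′ to 3′ along the gene's own strand, in lower case with matches in capitals. The table held 11 such starts for 8 of the 10 members. Fabp4 and Lpl had no entry.
Adipoq, chr16:23146286-23146535, plus strand: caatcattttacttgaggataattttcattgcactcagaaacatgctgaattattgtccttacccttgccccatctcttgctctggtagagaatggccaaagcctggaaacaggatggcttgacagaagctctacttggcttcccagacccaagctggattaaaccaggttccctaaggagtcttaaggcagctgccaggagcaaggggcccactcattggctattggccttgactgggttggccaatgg
Retn, chr8:3655520-3655769, plus strand: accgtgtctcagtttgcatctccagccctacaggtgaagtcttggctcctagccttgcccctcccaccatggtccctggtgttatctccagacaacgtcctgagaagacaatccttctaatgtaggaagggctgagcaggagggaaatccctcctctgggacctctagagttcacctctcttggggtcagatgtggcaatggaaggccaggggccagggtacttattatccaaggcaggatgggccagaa
Lep, chr6:29059971-29060220, plus strand: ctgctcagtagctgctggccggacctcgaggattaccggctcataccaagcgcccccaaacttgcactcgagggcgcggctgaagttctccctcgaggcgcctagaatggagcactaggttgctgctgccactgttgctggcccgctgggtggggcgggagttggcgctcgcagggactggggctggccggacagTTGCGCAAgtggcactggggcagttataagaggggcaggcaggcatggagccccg
Cidec, second start, chr6:113434765-113435014, minus strand: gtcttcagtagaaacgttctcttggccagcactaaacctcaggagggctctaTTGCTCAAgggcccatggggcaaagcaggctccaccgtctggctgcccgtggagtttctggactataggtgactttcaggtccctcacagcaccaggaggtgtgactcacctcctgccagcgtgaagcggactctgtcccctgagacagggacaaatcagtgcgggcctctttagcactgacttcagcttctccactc
Pparg, last start, chr6:115421816-115422065, plus strand: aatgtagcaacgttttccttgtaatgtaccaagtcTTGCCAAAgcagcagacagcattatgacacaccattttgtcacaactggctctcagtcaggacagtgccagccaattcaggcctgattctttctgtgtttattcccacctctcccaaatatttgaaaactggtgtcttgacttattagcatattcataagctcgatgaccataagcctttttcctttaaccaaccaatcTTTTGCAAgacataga
The motifs searched on both strands were TTGCNNAA for C/EBP factors, AGGNCANAGGNCA for the direct repeat bound by PPAR with its partner RXR, and TATAAA. No match overlapped a match of another motif. The C/EBP letters were found in 4 of the members' 11 windows and in 9.56% of the 32851 windows of that length in the table. In Lep the match read the same motif on either strand, TTGCGCAA, from 55 to 48 bases before the start. Cidec held TTGCTCAA from 198 to 191 bases before its second start, which lies inside the gene outside its exons, and the windows of Adipoq and Retn touched no annotated gene. Pparg held TTGCCAAA (215 to 208) and TTTTGCAA (16 to 9) before its last start, also inside the gene outside exons. Plin1 held TTGCCTAA (187 to 180) and TTGCCCAA (58 to 51). The PPAR repeat was found in none of the 11 windows, against 0.338% of all windows, and TATAAA in 1 of 11, against 12.4%. A match is a description of letters, not a bound site.

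Adipocyte RNA was plentiful in unwounded skin at all sites. Over the 12 unwounded libraries, Cfd (adipsin, a serine protease of the alternative complement pathway) averaged 926 FPKM ± 290.4 (SD) and stood 92nd of all 18368 genes. Fabp4, the fatty acid carrier of adipocyte cytoplasm, averaged 600.4 FPKM ± 134, Lpl 165 ± 25.5 and Adipoq 135 ± 42.5. Cidec averaged 85.0 FPKM ± 32.3, Retn 67.9 ± 37.5, Plin4 27.7 ± 5.24, Plin1 25.6 ± 7.37 and Pparg 19.1 ± 3.95. The lowest member was Lep, the leptin gene, at 3.94 FPKM ± 1.89. The spread differed among members as well, since the highest unwounded library held 8.57 times the Retn of the lowest and 6.36 times the Lep, but 1.68 times the Lpl and 1.83 times the Plin4. Cells other than adipocytes also express Lpl, Fabp4 and Pparg, among them endothelium, macrophages and sebocytes, and for Lpl skeletal muscle. Ucp1, the uncoupling protein that defines brown and beige fat, was at 0 to 0.26 FPKM in every library, at or near 0.

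Certain libraries stood apart before any comparison was made. The unwounded cheek library of mouse 4 held 3853 FPKM of 7 genes of the growing hair follicle, with Krt71 at 1651 FPKM, while the other 23 libraries held 3.83 to 71.95 FPKM of them, so that this library went against the telogen label. The 10 adipocyte genes averaged 0.567 times their group's geometric mean there. The cheek wound of mouse 1 averaged 1.84 times its group's mean. Back mouse 2 held growing-follicle RNA at a lower level, with Krt71 at 27.3 FPKM in unwounded skin and 6.83 FPKM in its wound. Krt71 stood at 0.03 to 0.18 FPKM in the other back libraries and at 3.06 FPKM in unwounded cheek mouse 3. The 10 adipocyte genes averaged 1.31 times their group's geometric mean in the unwounded back skin of mouse 2. In unwounded abdomen, mice 2 and 3 held 440.3 and 2346 FPKM of 7 skeletal muscle genes, against 9866 to 19740 FPKM in the other 10 unwounded libraries. Wound libraries also differed from unwounded ones in other cells' RNA. The 6 neutrophil genes summed to 7.99 to 36.9 FPKM in unwounded skin and to 338 to 2378 FPKM in wounds, the 7 macrophage genes to 151 to 272 and 324 to 523 FPKM, and the 6 keratinocyte genes to 6351 to 11451 and 10813 to 18649.5 FPKM. In the mean effect over the sites, 6 of 6 neutrophil, 5 of 7 macrophage and 3 of 6 keratinocyte genes rose, while 6 of 7 muscle and 4 of 6 fibroblast genes fell. Against these directions, 1 macrophage and 1 keratinocyte gene fell and 1 fibroblast gene rose. Of the rest, 4 of 7 endothelial genes rose and 2 fell, 2 of 7 sebaceous genes fell and 1 rose, 3 of 7 growing-follicle genes fell, and the 6 mammary genes in the table, 1 of which rose, summed to at most 11.5 FPKM in any library. The part of these shifts in the adipocyte results was not tested.

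Wounds held lower FPKM of all 10 members than the skin beside them. In the mean effect over the 3 sites (limma on log2(FPKM + 0.5) with a term for each mouse, Benjamini-Hochberg adjustment over 14423 genes), 10 of 10 fell at an adjusted p under 0.05, where 29.4% of all tested genes fell. The members' median change was −1.10 on the log2 scale, and the median of all tested genes was 0.02. Falls ran from −1.76 for Cfd to −0.32 for Pparg. Retn, Cfd, Plin4, Cidec, Fabp4 and Lpl were lower in the wound than in the adjacent skin in 12 of 12 mice, as 9.81% of all tested genes were, Adipoq, Lep and Plin1 in 11, and Pparg in 10.

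**Figure D1:**
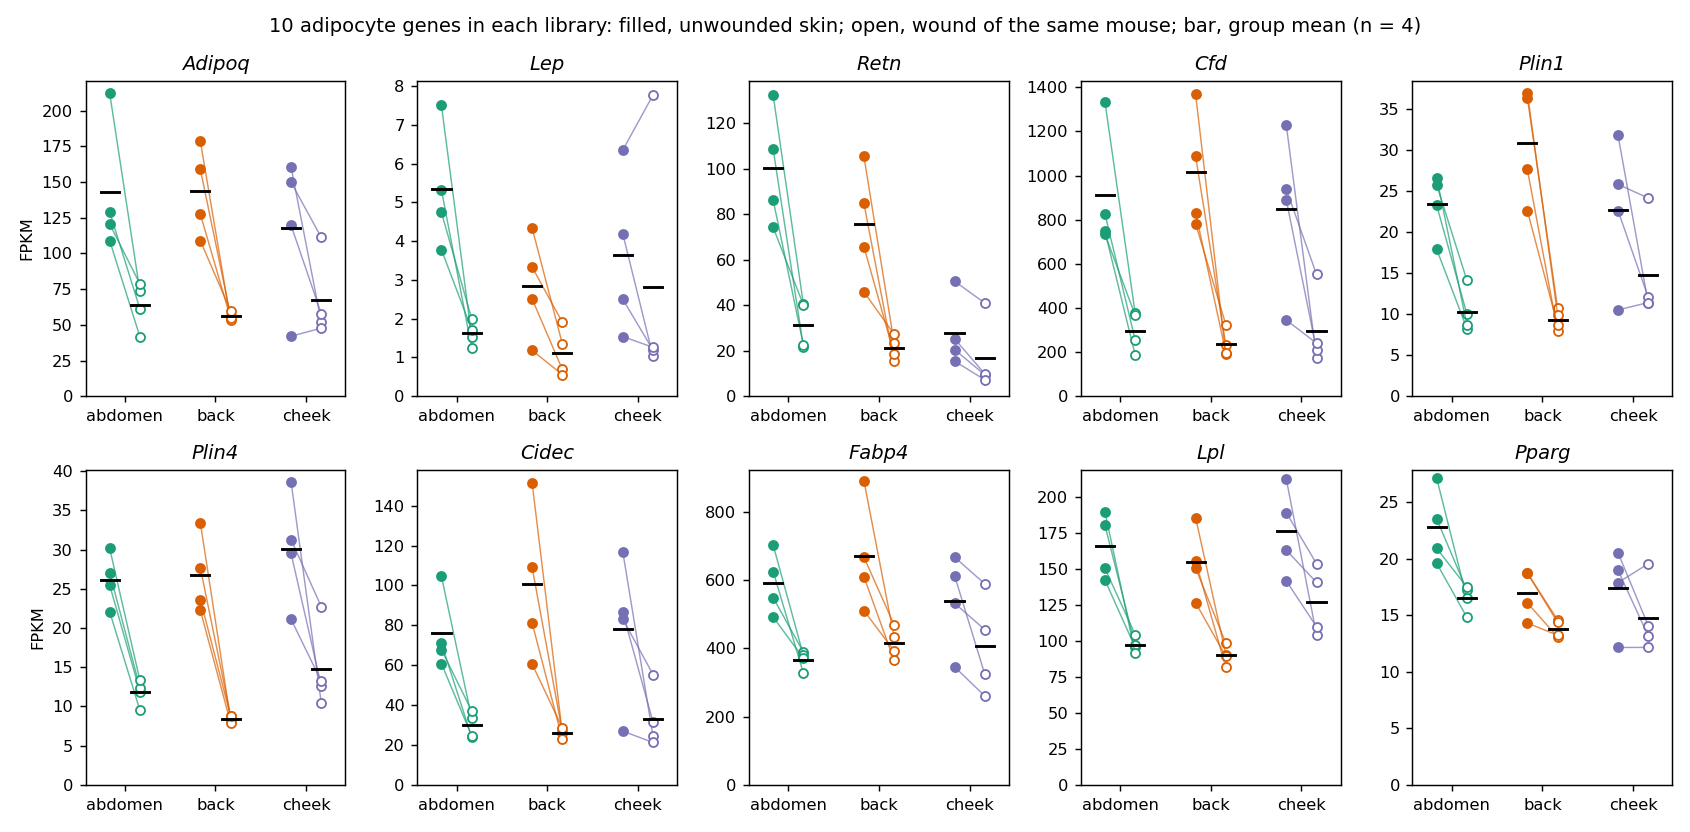
FPKM of each of the 10 adipocyte genes (vertical axes, each starting at 0) in every library, by site; filled points are unwounded skin, open points the wound of the same mouse, lines join the libraries of a mouse, and bars are means of 4 mice. Lines fall in nearly every mouse, and in the cheek the wound of mouse 1 stays high (Adipoq 111 FPKM) while the unwounded skin of mouse 4 is low (42.0 FPKM).

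Among the hormone genes, Adipoq encodes adiponectin, a hormone secreted by adipocytes in large amounts. In abdomen, Adipoq stood at 109, 129, 212 and 121 FPKM in the unwounded skin of mice 1 to 4 and at 41.6, 61.1, 73.4 and 78.6 FPKM in their wounds. In back, the unwounded values were 159, 178, 127 and 109 FPKM and the wound values 56.4, 53.2, 54.5 and 59.8 FPKM. In cheek, intact skin held 149.8, 161, 119.7 and 42.0 FPKM and wounds 111, 51.9, 57.7 and 47.7 FPKM. Every abdomen and back wound lay below every unwounded library of its site, and the cheek groups overlapped, with mouse 4 low in unwounded skin and mouse 1 high in the wound. The wound held 51.4% ± 23.8 (SD, n = 12) of the adjacent skin's Adipoq, and the log2 change was −1.15 (SE 0.25, adjusted p = 0.005) at the abdomen, −1.32 (SE 0.25, adjusted p = 0.0012) at the back and −0.73 (SE 0.25, adjusted p = 0.037) at the cheek by limma. Without cheek mouse 2 the cheek change was −0.43 (adjusted p = 0.19), and it also missed the threshold without cheek mouse 1 or 3. The mean over the sites was −1.07 (SE 0.14, adjusted p = 5.0e-05). An exact sign-change test over the 12 mice, two-sided, gave p = 0.00098, where the smallest it can give is 0.00049.

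Cfd fell the furthest of the 10. Abdomen libraries of mice 1 to 4 held 747, 826, 1334 and 734 FPKM of Cfd unwounded and 188, 256, 376 and 367 FPKM wounded. Back libraries gave 1087, 1368, 832 and 782 FPKM and 231, 191, 197 and 324 FPKM, respectively. Cheek libraries gave 938, 1229, 889 and 345 FPKM unwounded and 552, 175, 210.2 and 240.3 FPKM wounded. The groups did not overlap in abdomen and back, and in cheek the wound of mouse 1 lay above the unwounded skin of mouse 4, the lowest of the 12 unwounded libraries. Wounds held 33.4% ± 17.8 (SD, n = 12) of the adjacent level, and in back 25.1% ± 11.7 (SD, n = 4). The limma change was −1.76 (SE 0.20, adjusted p = 2.0e-05) in the mean, and −2.10 (SE 0.35, adjusted p = 6.5e-04) in back alone, the steepest of any member at any site.

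Retn encodes resistin, which in mice is secreted by adipocytes. The 4 abdomen mice had 108, 86.2, 132 and 74.2 FPKM of Retn in intact skin and 21.7, 22.5, 40.4 and 40.1 FPKM at the wound. The 4 back mice had 84.9, 105, 65.8 and 45.9 FPKM in intact skin and 15.3, 23.5, 18.6 and 27.2 FPKM at the wound. The 4 cheek mice had 50.6, 20.5, 25.2 and 15.4 FPKM and 40.95, 9.41, 9.82 and 7.21 FPKM. All 12 mice had less Retn in the wound, and abdomen and back groups did not overlap. The mean change was −1.47 (SE 0.16, adjusted p = 1.1e-05) by limma, and wounds held 39.3% ± 18.9 (SD, n = 12) of the adjacent level. Cheek Retn was low in both states in mice 2 to 4, and mouse 1 held the highest cheek value in both.

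Lep was the scarcest. Unwounded abdomen measured 4.74, 5.32, 7.50 and 3.78 FPKM of Lep in mice 1 to 4, and the paired wounds 2.00, 1.24, 1.54 and 1.72 FPKM. Unwounded back measured 2.51, 4.34, 3.33 and 1.18 FPKM and its wounds 0.690, 1.35, 1.91 and 0.560 FPKM. Unwounded cheek measured 6.35, 4.19, 2.50 and 1.54 FPKM and its wounds 7.77, 1.03, 1.19 and 1.26 FPKM. Abdomen groups did not overlap, back groups did, and in cheek mouse 1 had more Lep in its wound than in any other library of the series. The changes were −1.43 (SE 0.27, adjusted p = 0.0019) in abdomen, −1.01 (SE 0.27, adjusted p = 0.0081) in back and −0.60 (SE 0.27, adjusted p = 0.097) in cheek by limma, so the cheek change was not called. Without cheek mouse 1 the cheek estimate was −0.89 with an adjusted p of 0.029 in the same limma fit. Since Lep lay near the added 0.5 FPKM, its fold changes are understated on this scale.

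The genes of the lipid droplet fell alongside the hormones. Cidec drives the transfer of lipid from smaller to larger droplets. In abdomen, Cidec stood at 70.9, 60.8, 105 and 67.8 FPKM in the unwounded skin of mice 1 to 4 and at 23.99, 24.6, 33.6 and 37.1 FPKM in their wounds. In back, the unwounded values were 109, 151, 81.2 and 60.6 FPKM and the wound values 26.5, 25.8, 22.9 and 28.5 FPKM. In cheek, intact skin held 83.1, 117, 86.4 and 26.9 FPKM and wounds 55.3, 24.3, 31.5 and 21.3 FPKM. Unwounded cheek mouse 4 again lay among the wounds, and all other unwounded libraries lay above the wounds of their site. Wounds held 40.1% ± 18.8 (SD, n = 12) of the adjacent Cidec, and the mean limma change was −1.45 (SE 0.17, adjusted p = 2.2e-05).

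Plin1, the perilipin that guards the droplet of white adipocytes against lipases, was lower in 11 of 12 wounds. Abdomen libraries of mice 1 to 4 held 17.9, 23.2, 26.6 and 25.7 FPKM of Plin1 unwounded and 8.24, 10, 8.69 and 14.1 FPKM wounded. Back libraries gave 36.4, 36.9, 27.6 and 22.6 FPKM and 10.8, 9.93, 7.96 and 8.67 FPKM, respectively. Cheek libraries gave 25.8, 31.7, 22.6 and 10.5 FPKM unwounded and 24.1, 11.3, 12.02 and 11.4 FPKM wounded. The change was −1.65 (SE 0.21, adjusted p = 7.4e-05) in back and −0.58 (SE 0.21, adjusted p = 0.046) in cheek by limma, with −1.13 (SE 0.12, adjusted p = 6.9e-06) in the mean. The cheek call held in 3 of 12 limma fits that each left out 1 mouse, and the change was −0.29 (adjusted p = 0.26) without cheek mouse 2. In cheek mouse 4 the wound held slightly more Plin1 than the skin beside it. Plin4, a perilipin found on small nascent droplets, had the smallest adjusted p of the 10. The 4 abdomen mice had 22.1, 25.5, 27.04 and 30.1 FPKM of Plin4 in intact skin and 9.51, 11.9, 12.4 and 13.3 FPKM at the wound. The 4 back mice had 27.7, 33.4, 22.2 and 23.6 FPKM in intact skin and 8.78, 8.31, 7.92 and 8.77 FPKM at the wound. The 4 cheek mice had 31.3, 38.6, 29.5 and 21.1 FPKM and 22.7, 10.4, 12.6 and 13.2 FPKM. Its wounds lay within 7.92 to 8.78 FPKM in back, a narrower range than for any unwounded group, and the mean change was −1.25 (SE 0.10, adjusted p = 4.9e-07) by limma.

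Genes of fatty acid handling fell less. Fabp4 held 67.5% ± 13.6 (SD, n = 12) of the adjacent level. Unwounded abdomen measured 625, 548, 702 and 491 FPKM of Fabp4 in mice 1 to 4, and the paired wounds 327, 389, 379 and 371 FPKM. Unwounded back measured 610.1, 891, 511 and 667 FPKM and its wounds 365, 433, 393 and 469 FPKM. Unwounded cheek measured 667, 613, 532 and 346 FPKM and its wounds 589, 324, 455 and 260.4 FPKM. Wound and unwounded groups were apart in abdomen and back and mixed in cheek, and the mean limma change was −0.59 (SE 0.08, adjusted p = 4.2e-05). Lpl, the lipase, held 64.2% ± 13.5 (SD, n = 12). In abdomen, Lpl stood at 142, 180.3, 189.5 and 150.3 FPKM in the unwounded skin of mice 1 to 4 and at 95.4, 96.96, 91.4 and 104 FPKM in their wounds. In back, the unwounded values were 151, 185, 126 and 155 FPKM and the wound values 98.3, 90.5, 89.2 and 81.5 FPKM. In cheek, intact skin held 189, 212, 163 and 142 FPKM and wounds 154, 104, 141 and 109.8 FPKM. Its 12 of 12 falls averaged −0.67 (SE 0.08, adjusted p = 1.2e-05) by limma, and the lowest single value, 81.5 FPKM, was a back wound.

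Pparg, the regulator, moved the least. Abdomen libraries of mice 1 to 4 held 19.6, 23.5, 27.1 and 20.9 FPKM of Pparg unwounded and 14.8, 17.2, 16.5 and 17.5 FPKM wounded. Back libraries gave 18.8, 16.1, 18.7 and 14.3 FPKM and 14.6, 13.1, 14.4 and 13.2 FPKM, respectively. Cheek libraries gave 17.9, 19.0, 20.5 and 12.2 FPKM unwounded and 19.6, 13.2, 14.1 and 12.2 FPKM wounded. Abdomen groups were apart, back groups met at 14.3 and 14.6 FPKM, and 2 of 4 cheek mice were higher in the wound, mouse 4 only at 12.17 against 12.16 FPKM. Wounds held 80.7% ± 13.9 (SD, n = 12) of the adjacent level. The limma change was −0.45 (SE 0.11, adjusted p = 0.0097) in abdomen, −0.28 (SE 0.11, adjusted p = 0.057) in back and −0.23 (SE 0.11, adjusted p = 0.13) in cheek, and −0.32 (SE 0.06, adjusted p = 9.0e-04) in the mean. Only abdomen and the mean were called. The abdomen call was lost without abdomen mouse 3 (−0.36, adjusted p = 0.057), cheek was called without cheek mouse 1 (−0.35, adjusted p = 0.044), and back was called in limma fits without cheek mouse 1, 2 or 3 (adjusted p = 0.042 to 0.048).

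**Figure D2:**
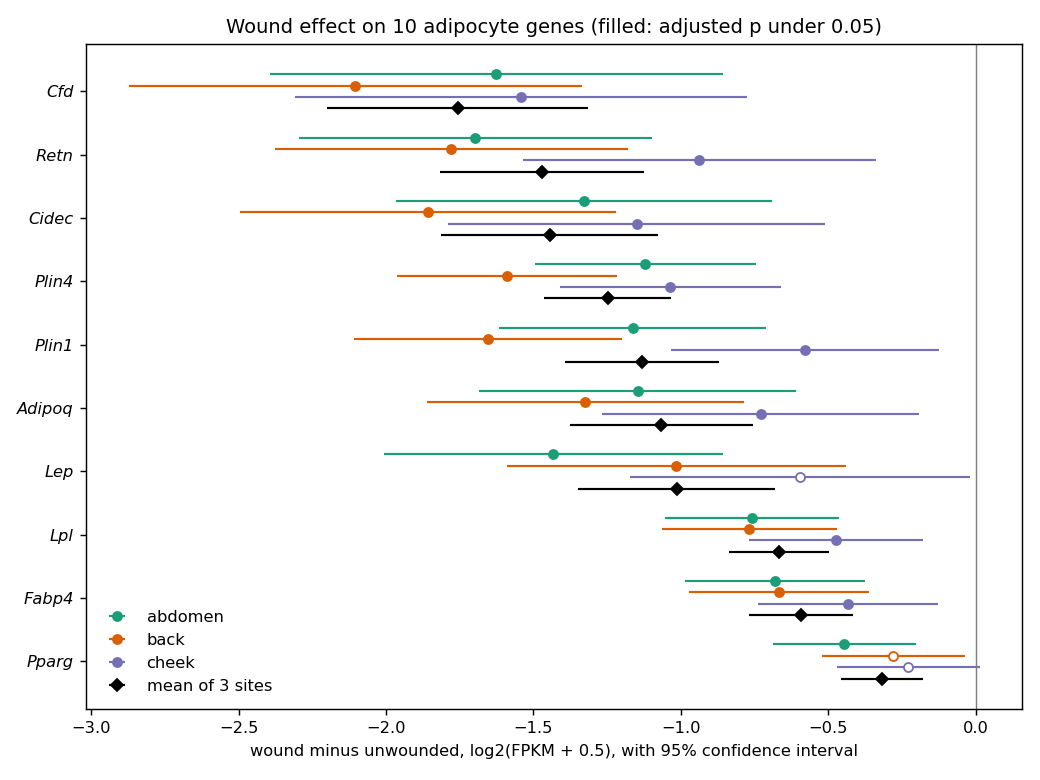
Change from unwounded skin to wound in log2(FPKM + 0.5) for each gene (horizontal axis) at abdomen, back and cheek and in the mean of the 3, with 95% confidence intervals from limma; filled symbols have an adjusted p under 0.05. Genes are ordered by the mean effect, from Cfd (−1.76) to Pparg (−0.32), and the open symbols are Lep in cheek and Pparg in back and cheek.

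Site by site, 10 of 10 members fell in abdomen (16% of all tested genes), 9 of 10 in back (17.9%) and 8 of 10 in cheek (16.9%) by limma. At an adjusted p under 0.001 the counts were 1 (1.04%), 6 (4.37%) and 1 (2.19%), and 10 (14.4%) in the mean. All 4 wounds lay below all 4 unwounded libraries for 10 members in abdomen, where 11% of tested genes did so, for 8 in back (15.4%) and for 0 in cheek (15%). The 10 members' mean log2 change was −1.24, −1.18, −1.39 and −0.75 in the 4 abdomen mice, −1.45, −1.68, −1.20 and −0.89 in the 4 back mice and −0.27, −1.51, −0.98 and −0.32 in the 4 cheek mice. Cheek mice 1 and 4 thus had the smallest falls of the 12. The cheek count was the least firm: it was 2 without cheek mouse 2, 5 without cheek mouse 3, 4 with no mouse term and 4 with cheek fitted alone. With cheek mice 1 and 4 both left out, an alternative chosen after seeing the data, it was 8 again, with Lep and Pparg called and Retn and Fabp4 not. With abdomen mice 2 and 3 left out, also chosen afterwards, the abdomen count was 4, and that fit had 2 abdomen mice.

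The size of the fall differed among members within the same animals. Measured against Adipoq, Cfd and Cidec fell more in 12 of 12 mice, with mean differences in log2 change of −0.69 ± 0.31 and −0.38 ± 0.23 (SD). Pparg and Fabp4 fell less in 11 of 12 mice (0.75 ± 0.42 and 0.47 ± 0.40) and Lpl in 10 (0.40 ± 0.44). Retn fell more in 9 mice (−0.40 ± 0.52). Lep, Plin1 and Plin4 differed from Adipoq by 0.05 ± 0.43, −0.07 ± 0.27 and −0.18 ± 0.34, with mice on both sides. Since the 12 mice were also those used for the wound effects, these are descriptions of the same data.

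No member's wound response was shown to differ between sites. The limma F test of the differences among the 3 wound effects called 0 of 10 members at an adjusted p under 0.05, as it called 3 of 14423 genes (0.0208%). An unadjusted p under 0.05 was found for 1867 of the 14423 genes, with 1 member among them. That member was Plin1 (adjusted p = 0.26), which fell by 1.65 on the log2 scale in back and by 0.58 in cheek, a difference of 1.08 (SE 0.29, adjusted p = 0.43) with a 95% interval of 0.43 to 1.72. For Adipoq, the cheek minus back difference was 0.60 with an interval of −0.17 to 1.36, and for Cfd 0.56 with −0.52 to 1.65. Intervals of this width leave room for responses that differ by 1 log2 unit.

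Between unwounded sites, Retn was the member called, in 1 of the 3 comparisons. Unwounded cheek held 50.6, 20.5, 25.2 and 15.4 FPKM of Retn and unwounded abdomen 108, 86.2, 132 and 74.2 FPKM, with no overlap (as for 10.6% of tested genes), and back lay between at 84.9, 105, 65.8 and 45.9 FPKM. The cheek minus abdomen difference was −1.93 (SE 0.35, adjusted p = 0.02) by limma over the 12 unwounded libraries, a 3.82-fold lower level in cheek, and it was the 1 member of 10 called in that comparison (2.57% of 13956 tested genes, and 0.143% at an adjusted p under 0.001, where no member was called). An exact permutation test of FPKM, two-sided, gave p = 0.029, the smallest possible with 4 against 4. Cheek minus back was −1.50 (SE 0.35, adjusted p = 0.078), short of the threshold. The cheek against abdomen call was lost without abdomen mouse 2 (adjusted p = 0.058), abdomen mouse 3 (0.075) or cheek mouse 2 (0.081) in the limma fit, with estimates of −1.99, −1.79 and −1.84. With both abdomen mice 2 and 3 left out it was −1.81 (adjusted p = 0.24), and with cheek mice 1 and 4 left out −2.08 (adjusted p = 0.022).

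No other member was called between unwounded cheek and abdomen, where 7 of the other 9 had estimates below 0 and Plin4 and Lpl above. The median of all tested genes was 0.03 there. The estimates of Adipoq, Cfd, Plin1, Cidec, Fabp4 and Lpl changed sign under at least 1 of 23 alternatives. Unwounded Adipoq averaged 143 ± 47.1 FPKM at the abdomen (SD, n = 4), 143 ± 31.2 at the back and 118 ± 53.6 at the cheek. Its cheek minus abdomen difference was −0.39 with a 95% interval of −1.24 to 0.46. Limma called 0 of 10 members between back and abdomen (2.67% of genes) and 0 of 10 between cheek and back (1.05%). An unadjusted p under 0.05 was found for 3072 and 3008 of the 13956 tested genes, and for 2 and 1 members. The 2 members between back and abdomen were Lep, at −0.87 (SE 0.39, adjusted p = 0.22), and Pparg, at −0.41 (SE 0.16, adjusted p = 0.17), both lower in back. Pparg stood at 19.6, 23.5, 27.1 and 20.9 FPKM in abdomen and 18.8, 16.1, 18.7 and 14.3 FPKM in back, 2 groups that did not overlap, as for 13.3% of tested genes, with p = 0.029 by the exact permutation test. The exact permutation test gave p = 0.057 for Lep. Cheek Pparg was also below abdomen in the estimate, at −0.40 (SE 0.16, adjusted p = 0.2). The median of all tested genes was itself −0.12 for back minus abdomen and 0.14 for cheek minus back.

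In wounds, limma called 0 of 10 members in any pair of sites, where it called 1.27% of 14023 tested genes between back and abdomen, 10.8% between cheek and abdomen and 2.5% between cheek and back. Unadjusted p-values under 0.05 were found for 1, 2 and 3 members, and for 2310, 4427 and 3659 of the 14023 tested genes. The nearest to a call was Lpl, which stood at 154, 104, 141 and 109.8 FPKM in cheek wounds and 98.3, 90.5, 89.2 and 81.5 FPKM in back wounds. Plin4 and Pparg were lower in every back wound than in every abdomen wound, as groups stood apart for 9.16% of tested genes. Every cheek wound was above every back wound for Lpl, Plin1 and Plin4, as the groups did not overlap for 21.3% of tested genes. The cheek minus back differences were 0.48 (SE 0.12, adjusted p = 0.052) for Lpl, 0.71 (SE 0.19, adjusted p = 0.064) for Plin4 and 0.56 (SE 0.23, adjusted p = 0.16) for Plin1. Lpl in cheek wounds also exceeded abdomen wounds in the estimate, by 0.37 (SE 0.12, adjusted p = 0.058). The 7 skeletal muscle markers had a median cheek minus abdomen difference of 0.996 in wounds, with 3 called higher in cheek. Their median cheek minus back difference was 0.605, with 1 called higher in cheek. The part of muscle in the differences of Lpl, Plin4 and Plin1 was not tested. Plin4 was lower in back than in abdomen wounds by estimate (−0.45, adjusted p = 0.26 by limma). Retn in cheek wounds was −1.17 (SE 0.47, adjusted p = 0.12) relative to abdomen wounds, and without cheek mouse 1 −1.72 with an adjusted p of 0.0093.

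**Figure D3:**
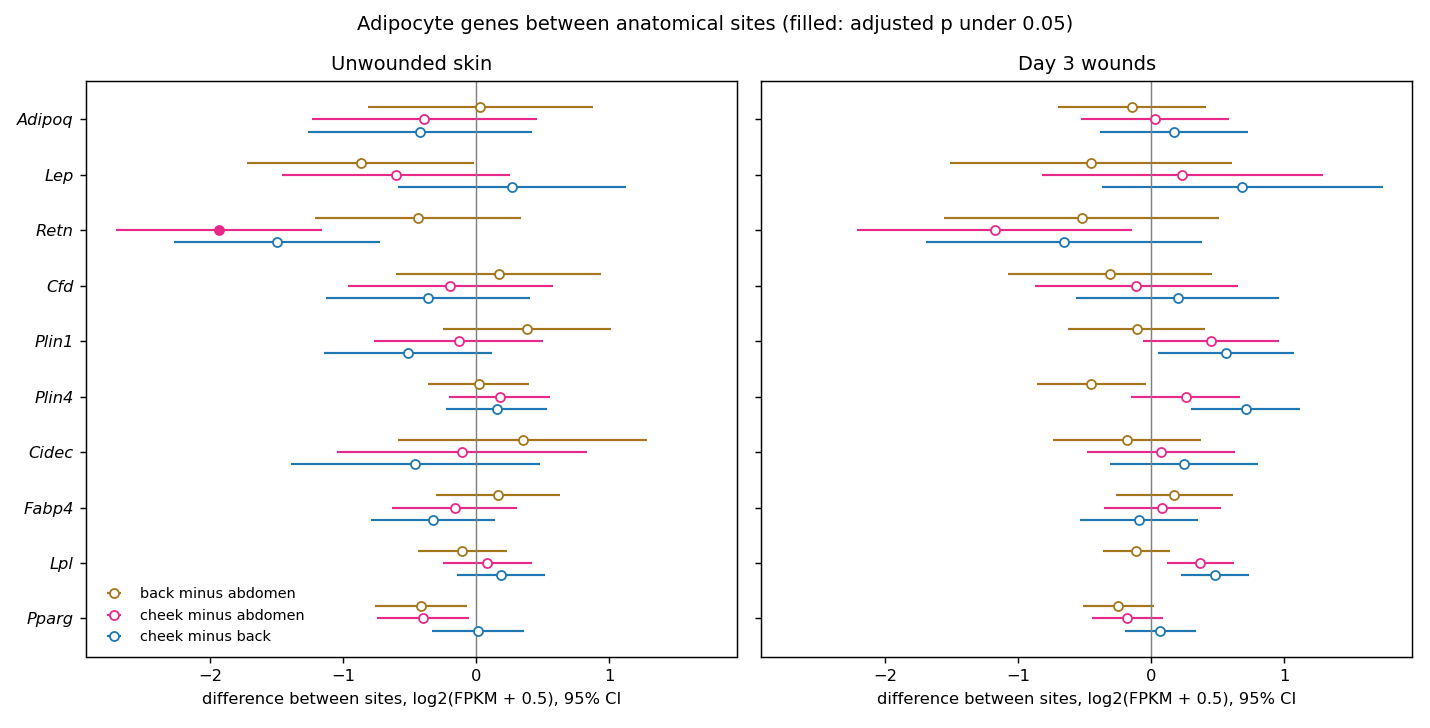
Differences between sites in log2(FPKM + 0.5) for the 10 adipocyte genes in unwounded skin (left) and in day 3 wounds (right), with 95% confidence intervals from limma; filled symbols have an adjusted p under 0.05. The filled symbol is Retn, cheek minus abdomen, in unwounded skin (−1.93), and most other intervals cross 0.

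The members moved together from library to library within groups. After the group mean was taken out of each gene, the 45 pairs of members had Pearson correlations over the 24 libraries from 0.46 (Retn with Lpl) to 0.94 (Adipoq with Cidec), with a median of 0.73. These points share whole libraries, and cheek mouse 1's wound and cheek mouse 4's unwounded skin lie at the ends. Correlation with the mean of the other 9 members was highest for Adipoq (0.94) and Cidec (0.92) and lowest for Lpl (0.72) and Lep (0.75). Outside the 10, the genes whose deviations were most like the members' mean were Slc36a2 (r = 0.95), an amino acid transporter, Lipe (0.94), hormone-sensitive lipase, Cdo1 (0.93), cysteine dioxygenase, Mrap (0.92), a partner of melanocortin receptors, and Slc1a5 (0.90), a glutamine transporter, over the same 24 libraries. All 5 also fell in the mean wound effect, as 29.4% of all tested genes did. Their changes ran from −1.46 for Cdo1 (SE 0.18, adjusted p = 3.0e-05 by limma) to −0.58 for Slc1a5 (SE 0.12, adjusted p = 0.0014). The 5 were picked from all tested genes in these same data, so their fall is a description and no separate support.

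**Figure D4:**
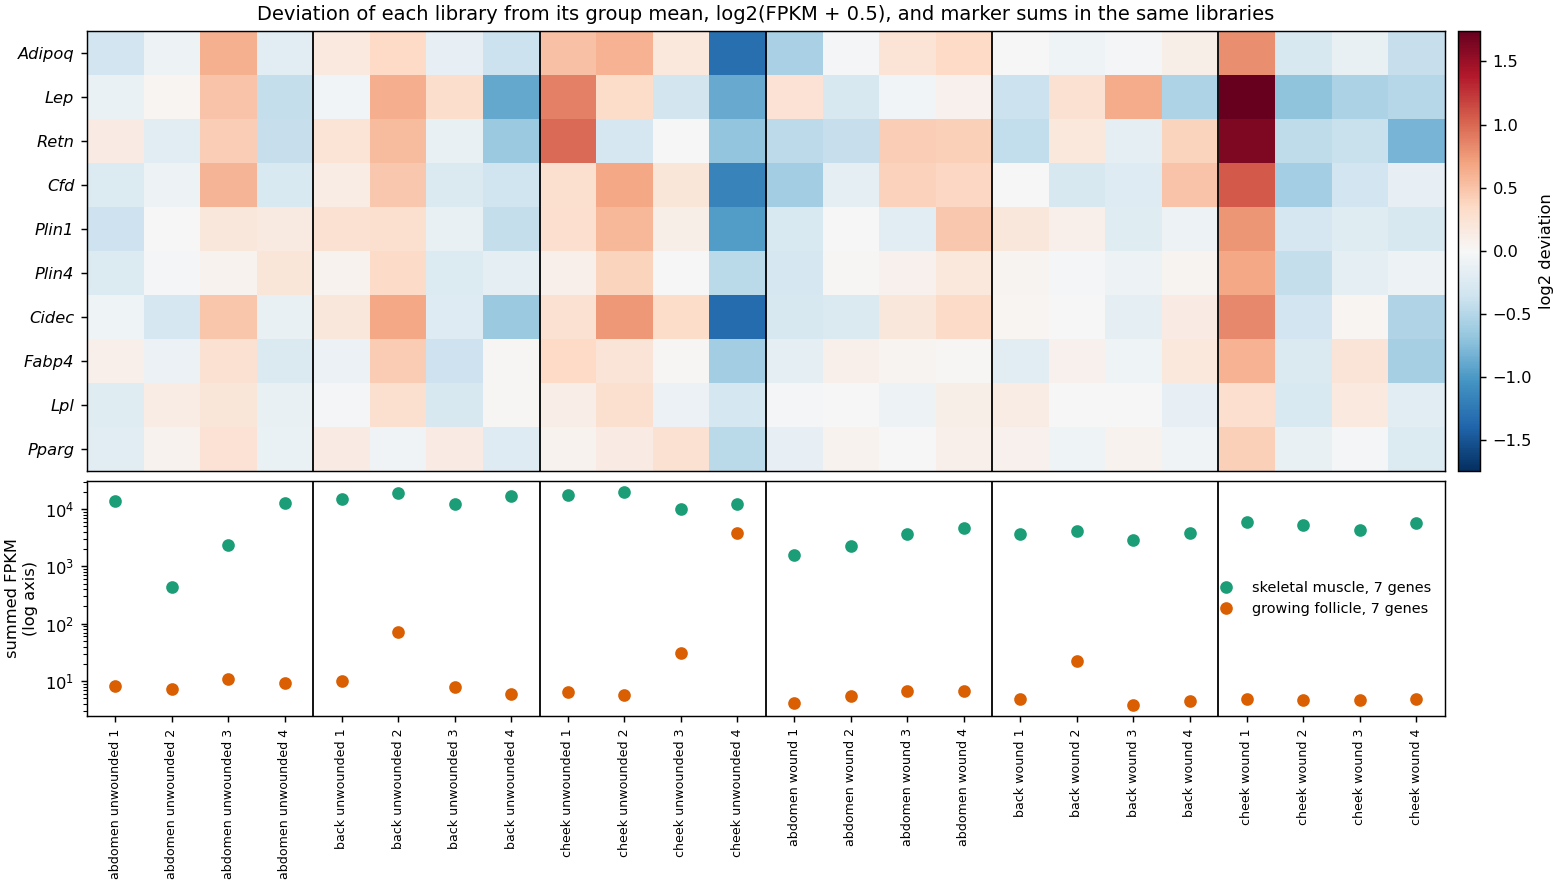
Upper panel, deviation of each gene in each library from the mean of its group in log2(FPKM + 0.5), red above and blue below; lower panel, summed FPKM of 7 skeletal muscle and 7 growing-follicle genes on a log axis in the same libraries. The unwounded cheek library of mouse 4 is blue for all 10 genes and holds 3853 FPKM of follicle genes, and the cheek wound of mouse 1 is red for all 10.

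Other genes of adipocyte metabolism were read from lists by function, each against the same mean wound effect, in which 29.4% of tested genes fell and 33.3% rose. Of 9 genes of triglyceride synthesis, 6 fell and 0 rose, with a median of −0.53. Pck1, which makes the glycerol backbone from pyruvate in fat, changed by −1.29 (SE 0.17, adjusted p = 6.1e-05) and Gpd1, glycerol-3-phosphate dehydrogenase, by −1.28 (SE 0.13, adjusted p = 6.0e-06) by limma. Of 9 genes of fatty acid synthesis, 7 fell and 1 rose (median −0.34). Mlxipl, the carbohydrate-sensing factor ChREBP, fell in 12 of 12 mice with a limma change of −1.40 (SE 0.15, adjusted p = 6.0e-06), and Thrsp, a lipogenic protein, changed by −1.16 (SE 0.20, adjusted p = 3.7e-04). Elovl6, a fatty acid elongase, rose by 0.22 (SE 0.07, adjusted p = 0.013), a call that was lost under quantile normalization and without the mouse term. Of 8 genes of insulin and glucose handling, 7 fell and 0 rose, led by Slc2a4, the insulin-responsive glucose transporter, at −1.78 (SE 0.22, adjusted p = 4.4e-05), and Irs1, an insulin receptor substrate, at −0.76 (SE 0.06, adjusted p = 1.7e-07). Slc2a4 is also a gene of skeletal muscle, whose 7 markers had a median of −1.23 in the same effect.

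Lipolysis and lipid uptake held genes of either direction. Of 8 lipolysis genes, 5 fell and 1 rose, with Adrb3, the adrenergic receptor of adipocytes, at −0.77 (SE 0.11, adjusted p = 7.6e-05) and Lipe at −0.75 (SE 0.11, adjusted p = 7.3e-05) by limma. The riser was G0s2, an inhibitor of adipose triglyceride lipase, at 1.01 (SE 0.16, adjusted p = 2.3e-04), higher in 11 of 12 wounds. Of 8 uptake genes, 4 fell and 1 rose. Vldlr, the very low density lipoprotein receptor, changed by −0.84 (SE 0.09, adjusted p = 4.4e-06) and Cd36, a fatty acid translocase, by −0.59 (SE 0.08, adjusted p = 2.9e-05). Angptl4, a secreted inhibitor of lipoprotein lipase, rose in 12 of 12 mice by 0.74 (SE 0.11, adjusted p = 1.1e-04). Of 9 other lipid droplet genes, 4 fell and 3 rose, with Plin5 at −1.10 (SE 0.13, adjusted p = 9.8e-06) and Fitm2, a factor of droplet formation, at −0.51 (SE 0.05, adjusted p = 1.3e-06) against Plin2, the perilipin of many cell types, at 0.47 (SE 0.07, adjusted p = 6.1e-05) and Hilpda, a hypoxia-inducible droplet protein, at 0.38 (SE 0.10, adjusted p = 0.0049).

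**Figure D5:**
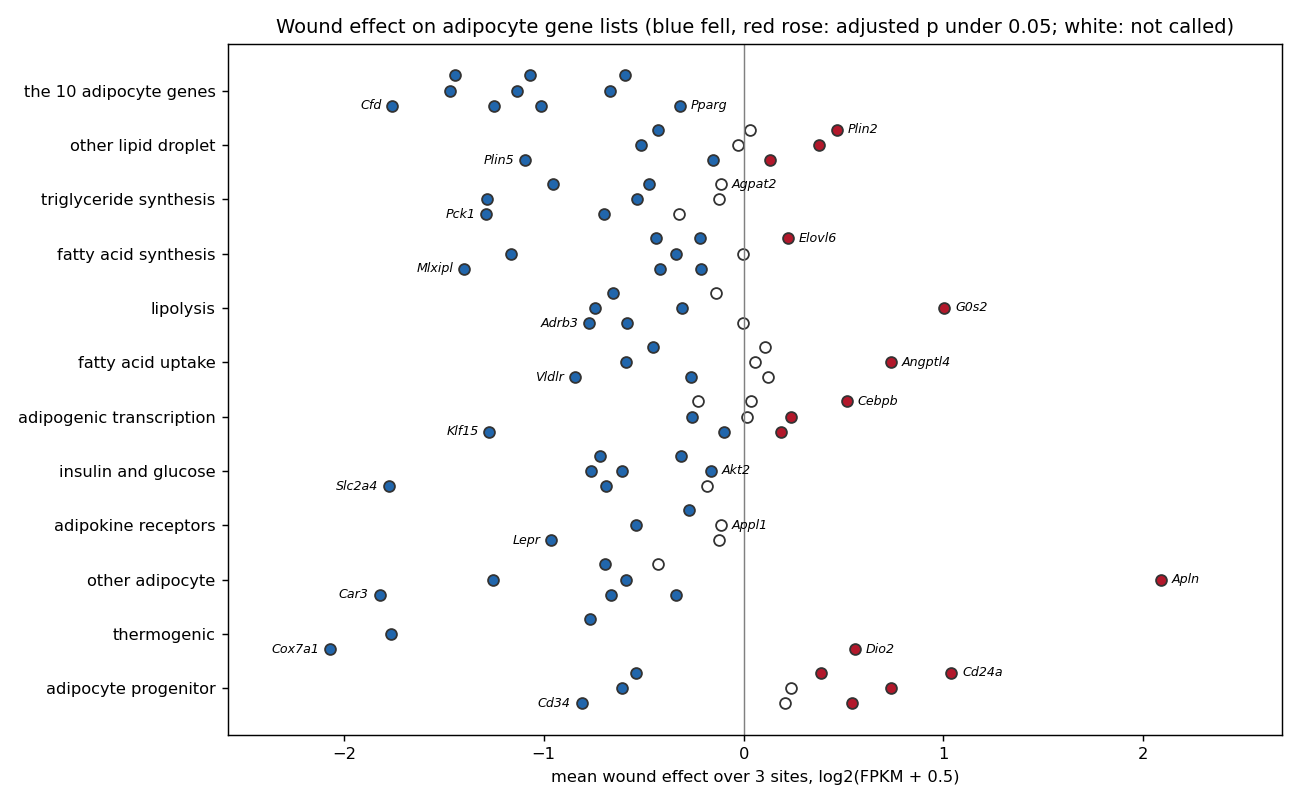
Mean wound effect over the 3 sites in log2(FPKM + 0.5) for each gene of 12 lists (rows), with the lowest and highest gene of each row named; blue genes fell and red genes rose at an adjusted p under 0.05 by limma, and white genes were not called. All 10 adipocyte genes are blue, the triglyceride synthesis and insulin rows hold no red gene, and Apln (2.09) stands furthest to the right.

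Transcription factors of adipogenesis were split, with 3 of 9 down and 3 up (1 up under quantile normalization). Klf15, a Krüppel-like factor, fell in 12 of 12 mice by limma with −1.27 (SE 0.12, adjusted p = 2.3e-06), and Zfp423, a preadipocyte factor, changed by −0.26 (SE 0.08, adjusted p = 0.011). Cebpb rose in 12 of 12 mice by 0.52 (SE 0.05, adjusted p = 3.2e-06) and Cebpd in 9 by 0.24 (SE 0.10, adjusted p = 0.049). Both are early C/EBP factors that are also induced by inflammation. Of 5 adipokine receptor genes, 3 fell (5 under median-ratio scaling or quantile normalization), with Lepr, the leptin receptor, at −0.96 (SE 0.10, adjusted p = 3.5e-06) and Cdh13, an adiponectin-binding cadherin, at −0.54 (SE 0.06, adjusted p = 3.9e-06). Of 8 further genes enriched in adipocytes, 6 fell and 1 rose, with Car3, carbonic anhydrase 3, at −1.82 (SE 0.14, adjusted p = 2.8e-07) and Mrap at −1.25 (SE 0.16, adjusted p = 4.8e-05). Car3 is also a gene of skeletal muscle, whose 7 markers had a median of −1.23 in the same effect, and the part of muscle was not tested. Apln, the peptide apelin, rose from 0.88 to 3.10 FPKM in unwounded libraries to 4.06 to 11.6 FPKM in wounds, by 2.09 (SE 0.12, adjusted p = 1.6e-08), in 12 of 12 mice. Apelin is made by adipocytes and also by growing endothelium, 4 of whose 7 markers rose and 2 fell, and the part of those cells was not tested.

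Progenitor markers were likewise mixed, with 3 of 9 down and 4 up. Cd34 changed by −0.81 (SE 0.09, adjusted p = 6.0e-06) and Pi16, a marker of a stem-like fibroblast state, by −0.61 (SE 0.14, adjusted p = 0.0029), while Cd24a rose by 1.04 (SE 0.10, adjusted p = 1.8e-06) and Icam1 by 0.74 (SE 0.07, adjusted p = 2.6e-06) by limma. Cd24a and Icam1 are also expressed by epithelium and leukocytes. Of 6 thermogenic genes, 4 passed the filter on low values, which Ucp1 and Prdm16 did not. Cox7a1 and Cox8b, mitochondrial subunits shared with muscle, changed by −2.07 (SE 0.32, adjusted p = 2.4e-04) and −1.76 (SE 0.28, adjusted p = 2.6e-04). Both were higher rather than lower in the wound in 2 of 12 mice. Ppargc1a, a coactivator of mitochondrial biogenesis that muscle expresses as well, changed by −0.77 (SE 0.09, adjusted p = 7.7e-06) by limma. The 7 muscle markers had a median of −1.23 in the same effect, and the part of muscle was not tested. Dio2, the deiodinase that activates thyroid hormone, rose by 0.56 (SE 0.13, adjusted p = 0.0019) by limma. It was scarce, with 1.22 FPKM in its highest unwounded back library and 0.52 FPKM in the next. Near the added 0.5 FPKM, fold changes are understated on this scale.

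Some of these list genes also differed between unwounded sites. Back was below abdomen for Cidea, a relative of Cidec, at −1.13 (SE 0.17, adjusted p = 0.0064), Acly, ATP citrate lyase, at −0.77 (SE 0.10, adjusted p = 0.0015), Me1, malic enzyme, at −0.58 (SE 0.14, adjusted p = 0.042), Mgll, monoacylglycerol lipase, at −0.92 (SE 0.22, adjusted p = 0.042) and Slc27a4, a fatty acid transporter, at −0.94 (SE 0.19, adjusted p = 0.024) by limma. Sebocytes express several of these genes as well, and the summed FPKM of 7 sebaceous markers was 955 to 1450.3 in unwounded abdomen and 589 to 781 in unwounded back. Their part in these differences was not tested. Car3 was higher in back than in abdomen, by 1.39 (SE 0.30, adjusted p = 0.029), as was Pi16, by 1.67 (SE 0.34, adjusted p = 0.029). Skeletal muscle also expresses Car3, and the 7 muscle markers had a median difference of 1.75 in that comparison, with 0 called by limma and 3 at an unadjusted p under 0.05. Plin5 was higher in cheek than in back, by 1.06 (SE 0.19, adjusted p = 0.019), and Lepr by 0.91 (SE 0.18, adjusted p = 0.034). Dio2, which reached at most 1.22 FPKM in unwounded back, was higher in cheek than in abdomen, by 1.58 (SE 0.29, adjusted p = 0.016) by limma. Ppargc1a, which muscle expresses as well, was also higher in cheek than in abdomen, by 0.90 (SE 0.21, adjusted p = 0.043). The muscle markers' median was 1.89 there, again with 0 called and 3 at an unadjusted p under 0.05, and abdomen mice 2 and 3 were the libraries low in muscle RNA. The part of muscle in these differences was not tested.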

How the data were processed

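RNA was measured in 24 libraries of whole mouse skin. The submitters' processing notes name HISAT2, Bowtie2 2.2.5, RSEM 1.2.12, DESeq2 and mm10, and the authors deposited FPKM per gene and library. The authors' own group comparisons, deposited as log2 ratios with p-values, were not used. Summed FPKM per library ran from 490830 to 608888. All 24 sample columns were used.

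Values were tested as log2(FPKM + 0.5) with limma 3.58.1 (trend, robust; statmod 1.5.0; R 4.3.3), keeping genes that reached 0.5 FPKM in 4 or more of a fit's libraries. All 10 members passed. The p-values were adjusted over all tested genes, with a threshold of 0.05. Wound effects came from all 24 libraries and 1 coefficient per mouse, the pairing being the same animal. Deviations of a mouse's 2 libraries from their group means correlated at a mean r of 0.32, 0.35 and 0.28 in abdomen, back and cheek. For different mice it was −0.11, −0.12 and −0.10. Deviations sum to 0 within a group, so these negative values follow from the first and are no separate comparison. Sites were compared within the 12 unwounded or 12 wound libraries, unpaired. Single members were also tested by exact sign changes within mice and by exact permutation between sites. Fits were tested on simulated data. Besides the 10 members, the genes named were the 2 largest rises and 2 largest falls called in each list, the 2 smallest p-values between unwounded sites if called, and the 5 genes most correlated with the members. A site difference of a member is given singly where its unadjusted p was under 0.05, and otherwise as an example with its interval. The members and lists were chosen with earlier results of these data known. Gene names came from the table, with Trarg1 found under an older symbol, and promoters from RefSeq.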

Additional observations from a re-analysis of the deposited data

Results flagged for a closer look

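In groups of 4 libraries, a library was marked where its gap to the nearest other was too large a share of the group's range by Dixon's criterion. Over 49 genes in 6 groups each, 294 groups in all, 17 were marked, and chance marks about 1 group in 20. In cheek wounds the highest library was marked for Adipoq at 111 FPKM, Lep at 7.77 FPKM, Retn at 41.0 FPKM and Plin1 at 24.1 FPKM, and all 4 were mouse 1. The highest cheek wound was also marked for Pck1 at 25.2 FPKM, Mlxipl at 3.17 FPKM, Thrsp at 53.9 FPKM, Mrap at 11.8 FPKM and Slc27a4 at 128 FPKM. In unwounded abdomen, the highest value was marked for Cfd at 1334 FPKM (mouse 3) and Pi16 at 81.2 FPKM, and the lowest for Fitm2 at 14.7 FPKM. In abdomen wounds, Cidea was marked high at 139.7 FPKM and Cd36 low at 54.2 FPKM. In back, Slc27a4 was marked high in a wound at 120.1 FPKM, and Cebpd at 16.9 FPKM and Dio2 at 1.22 FPKM in unwounded skin.

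Acly was higher in the wound in 4 of 4 back mice and lower in 4 of 4 abdomen mice. The limma F test of the difference among the 3 responses gave an adjusted p of 0.20, so a difference between sites was not shown.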

How the results depend on the processing

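Without counts, depth limits cannot be stated. In fits that held all sites, the limma p-values rested on 1 spread per gene, shared by the sites and drawn toward that of other genes. They do not measure the spread of a site's own 4 mice. In the mean over the sites all 10 members were called under every alternative run, leaving out each mouse included, and 0 members differed in response between sites or between back and abdomen in either state. For abdomen wounds the count of members was 10, and it was 1 at an adjusted p under 0.001, 4 with abdomen mice 2 and 3 left out (chosen after seeing the data) and 9 to 10 leaving out 1 mouse. For back it was 9, and 9 to 10 leaving out 1 mouse. For cheek it was 8, and it was 4 with each site fitted alone, 1 at 0.001 and 2 to 9 leaving out 1 mouse, lowest without cheek mouse 2. The term for mouse is the replicate block of the wound fits: with no replicate block the cheek count was 4, the back count 8 and the abdomen count 10. Between unwounded cheek and abdomen the count was 1 (Retn), 0 at 0.001, 0 with abdomen mice 2 and 3 left out and 0 to 1 leaving out 1 mouse. Between unwounded cheek and back it was 0, and 1 (Retn) with a replicate block on the mouse number, with all 24 libraries in 1 fit, and without cheek mouse 1. The mouse numbers pair nothing across sites, where same-numbered libraries had a mean r of −0.03 unwounded and −0.05 in wounds. The block changed no other count between sites. Between cheek and abdomen wounds the count was 0, and 1 under quantile normalization (Lpl), 1 with cheek mice 1 and 4 left out (Retn) and 0 to 1 leaving out 1 mouse. Between cheek and back wounds it was 0, and 1 with a pseudocount of 1 (Lpl) and 0 to 1 leaving out 1 mouse. The cause of these shifts was not tested. Of 60 site differences of members, 49 had an unadjusted p of 0.05 or more, and 26 of these changed sign under at least 1 alternative, while 0 were called under any. Quantile normalization turned the split of all genes called in the mean wound effect from 4798 higher and 4247 lower to 3919 and 5445, and there 0 fatty acid synthesis genes rose, 1 adipogenic factor rose and 5 adipokine receptors fell.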
